A study of Mus musculus with 162 samples.

Results

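The data describe 5 red blood cell transcripts, Hba-a1, Hba-a2, Hbb-bs, Hbb-bt and Alas2, in 9 mouse organs during short-term fasting (STF). They were taken as the rows of the count table that carry these symbols, 5 of 53686 rows, a rule that uses no measured value, although they were picked with earlier results of these data known. The mice were 18 males of the inbred strain C57BL/6J aged 8 to 9 weeks, with no transgene or deletion named, and all were killed by cervical dislocation at the same hour, soon after lights off. Food had been withdrawn 2, 8, 12, 18 or 22 h earlier, and the 0 h group had food at all times, with 3 mice per time. Each mouse gave 4 brain regions, namely the olfactory bulb (OB), the telencephalon with the diencephalon (BRN), the cerebellum (CBL) and the brainstem (BST), as well as the stomach (STM) and the liver (LIV). It also gave 3 adipose tissues, of which iBAT is the interscapular brown one, pgWAT the perigonadal white one and psWAT the white one under the skin of the posterior body. Every organ was sequenced as an mRNA-seq library of its own, and the study left out 5 libraries with low totals. All others are used here, unless a left-out library is named. Replicates within a time are separate mice. An SD given for an organ is over all its retained libraries, so that it covers fasting times as well as mice. An SE is that of a log2 fold change in a fit. The main fit between organs takes the organs of a mouse as independent. Libraries of the same time and replicate number were taken as the same mouse, an assumption that was not checked. The organs were frozen straight after dissection, and perfusion is not mentioned in the methods.

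Hemoglobin, the oxygen carrier of red blood cells, is a tetramer of alpha and beta globin chains that each hold a heme. Adult mice make the alpha chains from Hba-a1 and Hba-a2, and C57BL/6 mice make the beta chains from Hbb-bs and Hbb-bt. Alas2 encodes the erythroid form of 5-aminolevulinate synthase, which starts heme synthesis in developing red cells, while its relative Alas1 does so in other cells. Mature mammalian red cells have no nucleus, and the youngest of them in the blood, the reticulocytes, still carry globin mRNA left from the bone marrow. In such bulk samples, fewer red cells and less RNA per red cell cannot be told apart.

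The globin genes of each chain are near-identical copies, and these sequences show how little separates their counts. In the Gencode M21 transcripts on GRCm38, the coding sequences of Hba-a1 and Hba-a2 differ at 1 of 429 bases and encode the same protein. Those of Hbb-bs and Hbb-bt differ at 1 of 444 bases and encode the same protein. Both differences lie in the last coding exon. In the stretches below, read 5′ to 3′ on the coding strand, the capital marks the differing base, C381T between the alpha genes and C417T between the beta genes, counted from the first base of the coding sequence. The Hba-a1 stretch lies at chr11:32284313-32284373 and the Hba-a2 stretch at chr11:32297130-32297190, on the plus strand. The Hbb-bs stretch lies at chr7:103826665-103826722 and the Hbb-bt stretch at chr7:103812656-103812713, on the minus strand.
Hba-a1: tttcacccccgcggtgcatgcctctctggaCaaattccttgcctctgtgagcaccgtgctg
Hba-a2: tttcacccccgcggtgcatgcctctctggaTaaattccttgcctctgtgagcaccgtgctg
Hbb-bs: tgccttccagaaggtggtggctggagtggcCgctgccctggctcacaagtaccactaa
Hbb-bt: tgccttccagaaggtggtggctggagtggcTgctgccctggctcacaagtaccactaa

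The authors counted only reads that mapped to 1 place in the genome. Of all 150-base stretches of the Hba-a1 transcript, 51.6% do not occur in Hba-a2, and of those of Hba-a2 34.3% do not occur in Hba-a1. The corresponding shares were 41.3% for Hbb-bs and 49.3% for Hbb-bt. The split between the copies is therefore uncertain, and the sum of each pair rests on part of its reads. The genes (GRCm38, Gencode M21) lie at chr11:32283511-32284465 for Hba-a1, chr11:32296489-32297298 for Hba-a2, chr7:103826534-103828096 for Hbb-bs, chr7:103812524-103813996 for Hbb-bt and chrX:150547375-150570638 for Alas2. Exons of Apex2, a DNA repair gene on the opposite strand, overlap 311 of the 2403 exon bases of Alas2 (12.9%). The strand setting of the counting is not given in the sources used here, so that the effect of this overlap on the Alas2 counts is not known. Apex2 had 18.1 ± 3.05 (SD, n = 18) CPM (counts scaled to the library total) in LIV. Mir3620 overlaps a further 61 of these bases.

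The promoters of all 5 genes were in the RefSeq table of GRCm38.p6 and are given as a description, with no tie to the levels tested. Among the 250 bases before the start, Hba-a1 and Hba-a2 share an unbroken run of 247 bases, and Hbb-bs and Hbb-bt share a run of at most 14. Motifs were searched on both strands, each on its own, so that matches may overlap. CCAAT was found before all 4 globin genes and not in this window of Alas2, and 33.8% of the 32851 promoters in the table hold it. TATAA was found before all 5 genes, and 22.8% of promoters hold it. On the coding strand its nearest match begins 27 to 30 bases before the start in the 4 globin genes and 207 in Alas2. CACCC, held by 52.0% of promoters, and GATAA, held by 22.6%, were also found before all 5 genes. In the stretches below, on the coding strand, capitals mark CCAAT, which begins 88 bases before the start in Hba-a1 (chr11:32283572-32283601), 76 in Hbb-bs (chr7:103827987-103828016) and 75 in Hbb-bt (chr7:103813981-103814010). These are counted from the RefSeq start (position 32283672 in Hba-a1, 103827928 in Hbb-bs and 103813923 in Hbb-bt), which lies downstream of the Gencode gene start given above, so that the stretches of Hba-a1 and Hbb-bs fall inside the Gencode gene and that of Hbb-bt in part.
Hba-a1: agcacaaaccagCCAATgagaactgctcca
Hbb-bs: ccctggtaagggCCAATctgctcacacagg
Hbb-bt: ccctggcattggCCAATctgctcagagagg

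Retained libraries held 3045845 to 27801717 counts (median 8735550), and the left-out ones 130701 to 4590060. Levels are given as CPM of the library total, and levels of different genes are compared as CPM per kb of exon. Ratios between members are of counts, with no correction for length, and are compared between libraries only. A value of 3 counts, taken as the floor, equals 0.108 to 0.985 CPM in a retained library, and such limits cover counting error only. Of the 45 combinations of member and organ, 44 passed the filter on low counts, the exception being Hbb-bt in STM. In 4 libraries (BRN 2 h replicate 3, BRN 18 h replicate 2, psWAT 12 h replicate 3 and pgWAT 22 h replicate 2) an earlier analysis of these data placed the whole profile nearest to another organ, which was not recomputed here, and the counts of calls were computed with and without them. The defining genes of each organ were present in it (for example Alb at a mean of 59784 CPM in LIV and Ucp1 at 4212 CPM in iBAT). The 3 genes that mark forebrain summed to 281 CPM in BRN, and of these Lamp5 was higher in BST (312 CPM) than in BRN (180 CPM). In psWAT the sum of Adipoq, Lep and Tbx15 ranged from 48.7 to 3647 CPM, that of 5 skeletal muscle genes from 15.4 to 30362 CPM, and that of 3 CBL genes from 0 to 1628 CPM.

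All 5 transcripts were detected in every organ, and the 9 organs differed widely in their levels. Of the alpha globins, Hba-a1 was highest in pgWAT (201.1 ± 148.8 CPM, SD, n = 18; range 23.8 to 651) and LIV (198 ± 122.3, n = 18; 54.5 to 473). It was 79.8 ± 57.3 CPM in iBAT and 55.6 ± 46.7 in psWAT (n = 17 each), and 47.2 ± 25.1 in BRN (n = 16). The other organs lay close together, with 29.3 ± 16.6 CPM in OB, 25.6 ± 13.1 in CBL, 25.5 ± 12.0 in BST (n = 18 each) and 24.9 ± 14.9 in STM (n = 17). The ratio of the highest to the lowest organ mean was 8.09. Within an organ the highest library exceeded the lowest by 5.84 times in BST to 27.3 times in pgWAT, so that the ranges of all 9 organs overlapped.

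Hba-a2, the other alpha gene, followed nearly the same order at lower levels. Its mean was 58.8 ± 36.1 CPM in LIV, 57.9 ± 44.7 in pgWAT, 27.4 ± 24.4 in psWAT and 22.6 ± 18.99 in iBAT. It was 12.7 ± 7.77 CPM in BRN and 10.5 ± 9.52 in STM. OB (6.94 ± 3.66 CPM), BST (6.90 ± 2.89) and CBL (6.37 ± 3.16) held the least. LIV exceeded CBL by 9.24 times. Per kb of exon, Hba-a1 was above Hba-a2 in every organ mean, with 248 against 86.7 CPM per kb in pgWAT and 244 against 88.2 in LIV.

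The beta globin gene Hbb-bs was the most abundant member in 7 of the 9 organs per kb. It reached 348 ± 239 CPM in pgWAT (n = 18; 32.8 to 1081, median 283). In that organ 98.0% of the genes kept had a lower mean. It was 157.1 ± 106.9 CPM in BRN (29.1 to 371, median 148.8), 141.5 ± 102.4 in iBAT (33.7 to 331, median 81.9) and 107 ± 74.6 in LIV (21.1 to 256, median 100.3). The levels in psWAT (75.8 ± 67.5), CBL (64.6 ± 29.04), BST (58.2 ± 26.1) and OB (52.7 ± 26.7) formed a middle group. STM was lowest, with 14.5 ± 13.4 CPM (4.58 to 63.3, median 10.5), and its mean lay 23.99 times below that of pgWAT. Of the 17 STM libraries, 0 h replicate 3 alone exceeded 24.4 CPM. In LIV and STM, Hba-a1 was above Hbb-bs per kb (244 against 139.9 CPM per kb in LIV, and 30.6 against 18.9 in STM).

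Hbb-bt, the other beta gene, had a lower mean than Hbb-bs in every organ, also per kb. Its mean was 34.8 ± 41.05 CPM in pgWAT (1.57 to 154.95), 13.6 ± 8.95 in iBAT, 7.72 ± 5.95 in LIV and 7.52 ± 5.09 in BRN. It lay between 3.67 ± 2.21 CPM (OB) and 5.81 ± 2.58 (CBL) in OB, CBL, BST and psWAT. In STM it was 0.744 ± 0.724 CPM, 5 of the 17 libraries held 3 counts or fewer, and 1 of these (12 h replicate 1) held none, where 3 counts equal 0.358 CPM.

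Alas2, the heme synthesis enzyme, had its highest level in LIV and varied least there. It was 107 ± 13.7 CPM there (n = 18; 78.9 to 135.6, median 103.1), 25.5 ± 19.8 in pgWAT (3.87 to 72.6) and 11.1 ± 5.17 in iBAT. All other organ means lay between 1.61 ± 1.07 CPM (STM) and 5.10 ± 2.60 (OB), and the LIV mean was 66.3 times that of STM. The 18 LIV libraries varied little, with a coefficient of variation of 12.8% against 39.9% to 88.2% in the other organs and 61.4% to 77.1% for the globins in LIV. The lowest LIV library exceeded the highest library of every other organ. In BRN, 3 of the 16 libraries held 3 Alas2 counts or fewer, and 2 of them (12 h replicate 2 and 18 h replicate 2) held none, while their Hbb-bs levels, 351 and 371 CPM, were the highest of BRN. These 2 libraries also had the lowest totals of the retained BRN libraries (3152641 and 3045845 counts). The 18 h one is among those with a profile near another organ.

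**Figure D1:**
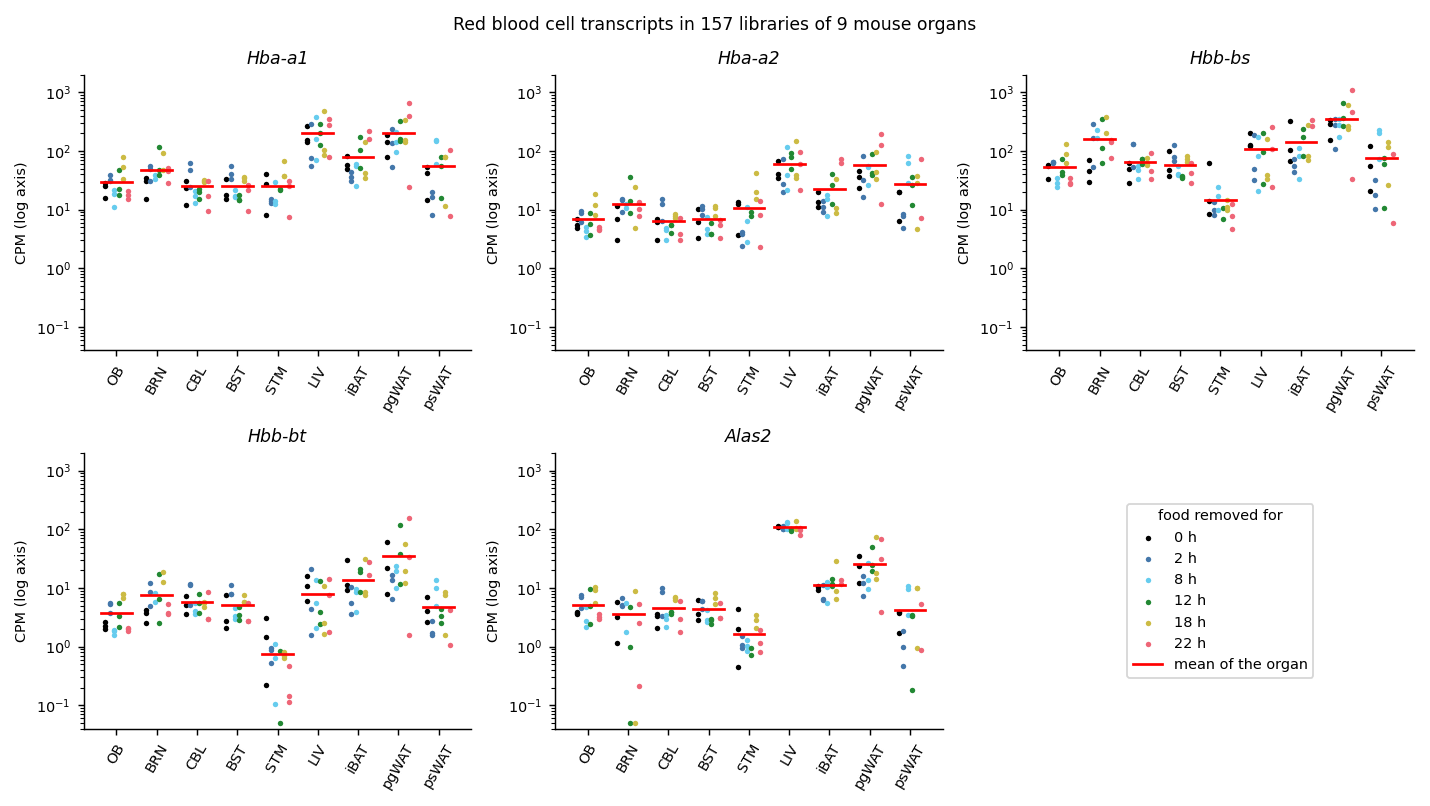
Level of each transcript in the retained libraries (y axis, CPM on a log scale; x axis, organ), 1 point per library coloured by hours without food, red bar the organ mean, libraries with 0 counts drawn at the bottom edge. Globins spread widely in every organ, and Alas2 in LIV (78.9 to 135.6 CPM) sits apart from all other organs.

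Between organs, Alas2 in LIV and Hbb-bs in STM differed from all 8 other organs. Each of 36 organ pairs was tested with edgeR's quasi-likelihood test (trimmed mean of M-values, TMM, factors over all organs, fasting time as a covariate), and a contrast was called where the adjusted p was under 0.05 and the log2 fold change (log2FC) exceeded 1 in size. Of all genes and pairs 50.2% were called. Hbb-bs was called in 25 of 36 pairs, Hba-a2 in 24, Alas2 in 22 and Hba-a1 in 20, and Hbb-bt in 16 of the 28 pairs without STM. Alas2 was higher in LIV than in each other organ, by a log2FC of 2.86 (SE 0.269) over pgWAT, the next organ. Hbb-bs was lower in STM than in each other organ, and OB, the next organ, exceeded it by a log2FC of 1.34 (SE 0.353, adjusted p 3.19e-04). Hbb-bt did not pass the filter in STM and entered this fit only through the other organs, so that its 8 pairs with STM are left out of these counts. LIV exceeded 7 other organs in both alpha globins, and pgWAT exceeded 6 in both and in Hbb-bs, and 6 in Hbb-bt with STM left out.

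Many neighbours in the order of means did not differ by the call. Hba-a1 in psWAT, BRN, OB, CBL, BST and STM formed a run in which no step between neighbours was called (adjusted p 0.0259 to 0.688), although psWAT and CBL, further apart in it, differed (log2FC of CBL over psWAT -1.13, adjusted p 6.53e-04). The same held for Hbb-bs along psWAT, CBL, BST and OB (adjusted p 0.504 to 1.0) and for Alas2 along OB, CBL, BST, psWAT, BRN and STM (adjusted p 0.0132 to 0.901). Further apart in the Alas2 run, OB exceeded STM (log2FC 1.22, adjusted p 1.79e-04) and so did BST (1.10, adjusted p 7.83e-04). The called steps of Hba-a1 were LIV over iBAT (log2FC 1.54, SE 0.309, adjusted p 3.51e-06) and iBAT over psWAT (1.26, SE 0.317, adjusted p 1.80e-04). The order of LIV and pgWAT in Hba-a1 rests on the scaling. TMM factors, which correct for a few abundant genes taking up a library, had a median of 0.620 in LIV and 1.09 in pgWAT, and with them Hba-a1 in pgWAT lay below LIV (log2FC -0.74, SE 0.297, adjusted p 0.0186), while its CPM mean lay slightly above. The organ a library came from accounted for 58.1% (Hbb-bt) to 62.3% (Hba-a2) of the variance of log2 (CPM + 1) for the globins and for 83.7% for Alas2.

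The proportions of the members to each other also varied by organ, which is described here without a test. Alpha globin counts per beta globin count were 0.453 ± 0.095 in CBL, 0.469 ± 0.227 in BRN, 0.510 ± 0.059 in BST and 0.641 ± 0.076 in OB. They were 0.693 ± 0.155 in pgWAT, 0.701 ± 0.183 in iBAT and 1.17 ± 0.506 in psWAT. In LIV they were 2.71 ± 1.22 (1.38 to 5.99) and in STM 2.79 ± 1.74 (0.799 to 7.17). Every LIV library (lowest 1.38) lay above every OB, CBL, BST and BRN library (highest 0.938). Within LIV, the 0 h libraries were among the lowest, at 1.44, 1.40 and 1.502, and the 18 h libraries were 3.49, 3.61 and 3.30. Within STM the 18 h libraries were 4.90, 7.17 and 4.87, above all others of that organ.

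**Figure D2:**
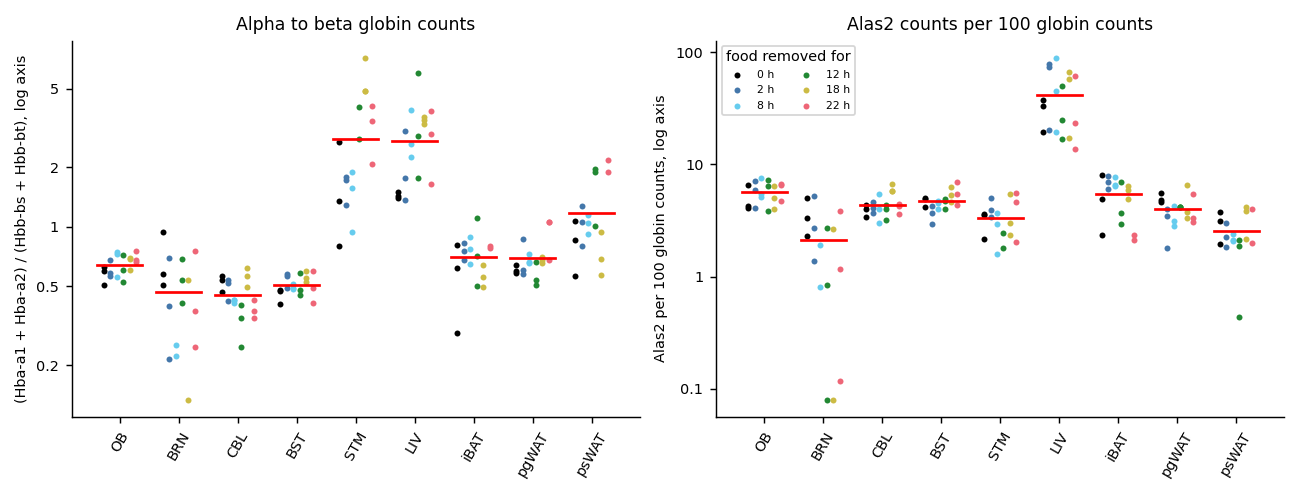
Left, alpha globin counts per beta globin count, and right, Alas2 counts per 100 globin counts (y axes, log scale; x axis, organ), 1 point per retained library coloured by hours without food, red bar the organ mean, 3 BRN libraries at or near 0 in the right panel lying at or close to its lower edge. LIV and STM stand above the others on the left (means 2.71 and 2.79), and LIV alone on the right (mean 41.4).

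The proportion of the copies of each chain varied too. Hba-a2 made up 19.6% ± 2.87 of alpha counts in OB, 20.2% ± 2.24 in CBL, 20.8% ± 4.04 in BRN, 21.6% ± 2.93 in iBAT, 21.7% ± 3.19 in BST, 22.7% ± 3.68 in pgWAT and 23.5% ± 3.43 in LIV. It reached 27.1% ± 6.45 in STM and 33.6% ± 5.85 in psWAT. Hbb-bt made up 4.92% ± 3.19 (STM) to 9.26% ± 1.68 (iBAT) of beta counts. Within pgWAT the Hbb-bt share ran from 4.30% (exact 95% binomial interval 3.40 to 5.35) in 12 h replicate 1 to 15.6% (14.7 to 16.5) in 0 h replicate 3. These intervals cover counting error only, not the spread between mice, and both libraries are the extremes of 18. The highest Hbb-bt share of any retained library, 23.4% (14.5 to 34.4), was that of psWAT 12 h replicate 2, which held 228 globin counts. Alas2 counts per 100 globin counts were 2.12 ± 1.66 in BRN, 2.54 ± 0.987 in psWAT, 3.36 ± 1.25 in STM and between 4.02 ± 1.13 and 5.62 ± 1.25 in pgWAT, CBL, BST, iBAT and OB. In LIV there were 41.4 ± 24.4.

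Within most organs, libraries high in 1 member were high in the others, given here as a description since the members share the same libraries and depth. Over the 9 organs, the Pearson r of log2 (CPM + 1) had a median of 0.954 for Hba-a1 with Hba-a2 (0.870 to 0.968), 0.895 for Hbb-bs with Hbb-bt over the 8 organs without STM (0.775 to 0.961) and 0.912 for Hba-a1 with Hbb-bs (0.505 to 0.977). The lowest of these alpha with beta values was that of STM, and with the time means taken out that of BRN (0.571, against 0.800 in STM). Hba-a2 followed Hbb-bs less closely in STM, with 0.355 (0.587 with the time means taken out). In BRN Hba-a2 had 0.528 with Hbb-bs and 0.433 with Hbb-bt. Hbb-bt in STM is not read here, as it did not pass the filter. For Hbb-bs with Alas2 the median was 0.849. It was 0.938 in psWAT and 0.916 in pgWAT, 0.459 in LIV and -0.189 in BRN. With the mean of each fasting time taken out, it was 0.747 in LIV and 0.744 in iBAT, and -0.265 in BRN. In LIV, Alas2 stayed between 78.9 and 135.6 CPM while Hbb-bs ranged from 21.1 to 256 CPM.

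**Figure D3:**
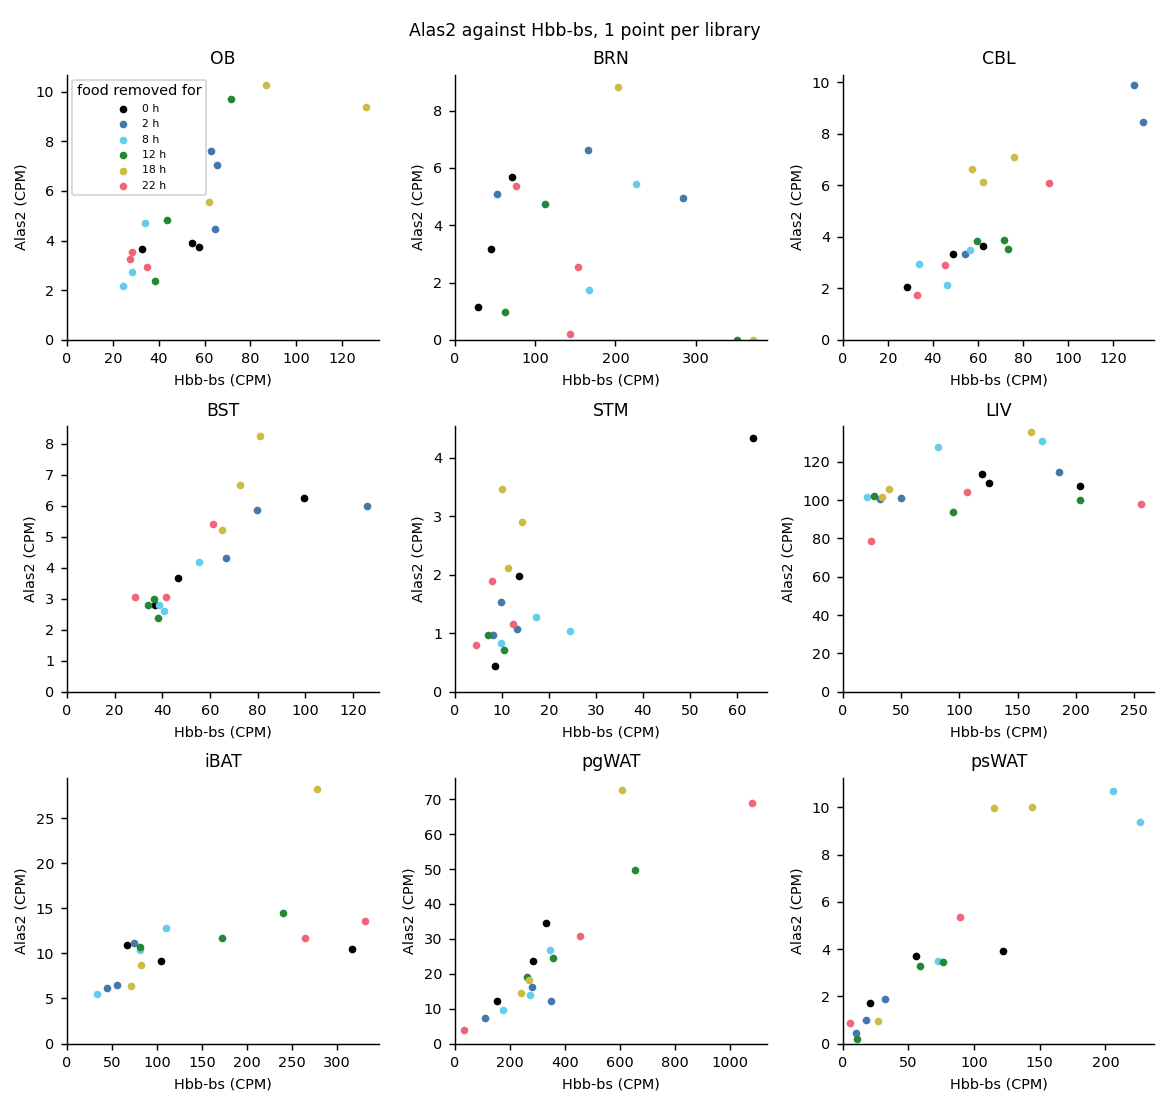
Alas2 (y axis, CPM) against Hbb-bs (x axis, CPM) in the retained libraries of each organ, 1 point per library coloured by hours without food, with axes scaled to each organ. The points climb together in 7 organs (Pearson r 0.551 to 0.938 on the log scale), and LIV points lie in a narrow band of Alas2 (r 0.459). The BRN libraries with the most Hbb-bs, which also had the lowest totals, have 0 Alas2 counts.

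The question of fasting was whether a member differed among the 6 times in an organ. The joint test over the times (edgeR's quasi-likelihood test, 1 fit per organ, adjusted over all genes kept) called 6 of the 44 combinations, against 7.34% of all genes and organs. These were Hba-a1, Hba-a2, Hbb-bs and Hbb-bt in OB and Hba-a1 and Hba-a2 in iBAT. In OB 15.3% of all genes were called and in iBAT 29%. At an unadjusted p under 0.05 there were 20 of 44, a count not set against the share of all genes at that threshold. With DESeq2 19 were called, where it called 15.4% of all genes and organs, and without replicate 3 of each time 0, where 6.71% of all were called.

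In OB the levels were highest at 18 h and low at 8 and 22 h. Hbb-bt counted 2.27, 2.61 and 2.00 CPM in the 3 mice at 0 h, 3.75, 5.43 and 5.24 at 2 h, and 1.85, 1.55 and 1.90 at 8 h. It counted 2.13, 5.62 and 3.25 CPM at 12 h, 7.86, 8.02 and 6.68 at 18 h, and 2.07, 2.00 and 1.81 at 22 h. All 3 mice at 18 h lay above all 15 mice of the other times. The joint test gave an adjusted p of 4.36e-04 (edgeR), and 18 h exceeded 0 h by a log2FC of 1.71 (SE 0.255, adjusted p 0.00383).

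Hbb-bs in OB was 32.8, 57.4 and 54.6 CPM at 0 h, 64.4, 65.5 and 62.6 at 2 h, and 34.2, 24.3 and 28.3 at 8 h. It was 38.5, 71.7 and 43.4 CPM at 12 h, 130.6, 87.0 and 61.9 at 18 h, and 34.9, 27.6 and 28.3 at 22 h. The 2 h mice lay above all 8 h and 22 h mice, and the 18 h mice overlapped those of 2 h. The joint adjusted p was 0.0132 (edgeR). At 18 h against 0 h the log2FC was 0.96 (SE 0.296, adjusted p 0.0518), which missed the call.

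Hba-a2 in OB was 5.50, 4.87 and 6.95 CPM at 0 h and 18.3, 11.9 and 8.02 at 18 h, with group means of 4.24 to 8.18 CPM at the other times. All 18 h mice lay above all 0 h mice. The joint adjusted p was 0.00798, and 18 h exceeded 0 h by a log2FC of 1.15 (SE 0.283, adjusted p 0.0192, edgeR). Hba-a1 was 15.5, 25.7 and 28.7 CPM at 0 h and 77.2, 54.2 and 33.7 at 18 h, with a joint adjusted p of 0.0460. Alas2 was 3.65, 3.74 and 3.91 CPM at 0 h and 9.37, 10.3 and 5.57 at 18 h, and its joint test missed the call (adjusted p 0.0523). Among all genes in OB, 0.0717% (12 of 16742) were called as higher at 18 h than at 0 h, and Hba-a2 and Hbb-bt were among these 12.

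These OB results rested unequally on single mice and on the sequencing lane, read from the library names. With each library left out in turn, the joint tests of Hba-a2, Hbb-bs and Hbb-bt were called in all 18 fits. That of Hba-a1 was called in 4, with an adjusted p of 0.181 without 18 h replicate 1. The contrast of Hba-a2 at 18 h was called in 15 of 18 fits (adjusted p up to 0.153), and that of Hbb-bt in all 18. OB libraries lay on 2 lanes, and 5 of the 6 times were on 1 lane each. With the lane as a covariate, the joint test of Hba-a1 (adjusted p 0.0987) and the contrasts at 18 h of Hba-a2 (adjusted p 0.310, with 1.62e-07 to 0.310 over its 10 alternatives) and Hbb-bt (0.196, with 8.66e-10 to 0.196) lost the call. The joint tests of Hbb-bt (adjusted p 0.00180), Hba-a2 (0.0211) and Hbb-bs (0.0320) kept it, and over their 10 alternatives the adjusted p reached at most 0.0793, 0.0850 and 0.2004, and that of Hba-a1 0.273.

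Markers of other blood and vessel cells in OB are given beside these values, and no test of their sums was run. The sum of 7 platelet genes was 4.49 to 5.65 CPM at 0 h and 5.79 to 7.36 at 18 h, and the highest library was one of 12 h (7.57), while neither of the 2 platelet genes that passed the filter was called by the joint test (edgeR, adjusted p 0.634 for Itga2b and 0.0850 for Pf4). The sum of 7 neutrophil genes was 9.91 to 25.6 CPM at 0 h and 3.40 to 19.7 at 18 h. The sum of 8 endothelial genes was 99.6 to 117.1 CPM at 0 h, 94.8 to 116.2 at 2 h, 72.3 to 99.4 at 8 h, 66.2 to 92.0 at 12 h, 80.8 to 121.2 at 18 h and 72.8 to 84.4 at 22 h. Its mean was lowest at 22 h (77.9 CPM), followed by 12 h (79.99) and 8 h (83.3), and highest at 0 h (108.2). Of the 8 endothelial genes 4 were called by the joint test, which called 15.3% of all genes in OB. The sum of the hemoglobin and heme clearance genes was 177.2 to 196.5 CPM at 18 h, below every library of the other times (lowest 219.6), and 2 of the 5 of them that passed the filter, Lrp1 and Slc40a1, were called by the joint test. Library totals were 11503120 to 16719545 counts at 0 h and 8981973 to 10598100 at 18 h, and across the 18 OB libraries Hbb-bs ran against the total (Spearman rho -0.589, p 0.0116, adjusted p 0.105 over 9 organs; Pearson r -0.575, p 0.0134, and -0.494 without the 2 libraries of most extreme total, permutation tests). The part of platelets, of vessel cells, of the clearance genes and of depth in the OB results was not tested.

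In iBAT the alpha globins were highest at 22 h. Hba-a2 was 13.4, 11.2 and 20.05 CPM at 0 h and 62.1 and 71.7 in the 2 retained mice at 22 h, with group means of 11.4 to 26.4 CPM at the other times. Both 22 h mice exceeded every other retained iBAT library. The log2FC of 22 h over 0 h was 2.06 (SE 0.516, adjusted p 0.00577, edgeR), and the joint adjusted p was 0.00830. Hba-a1 was 58.2, 49.998 and 80.8 CPM at 0 h and 156.8 and 217 at 22 h (log2FC 1.46, SE 0.554, adjusted p 0.0484; joint 0.0331). The beta globins did not reach the call, with Hbb-bs at 104.2, 66.2 and 317 CPM at 0 h and 264 and 331 at 22 h (log2FC 0.81, SE 0.710, adjusted p 0.382).

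At 22 h against 0 h, 12.6% of all genes in iBAT were called as higher, so that such a call is common in this organ. With each library left out in turn, the contrast of Hba-a2 was called in 17 of 17 fits and that of Hba-a1 in 6, and the joint tests in 15 and 10. Over 9 alternatives the contrast of Hba-a2 was called in all (adjusted p up to 0.0310) and its joint test in 8 (up to 0.109), while the contrast and the joint test of Hba-a1 were called in 5 each (up to 0.134 and 0.142). With a replicate block Hba-a1 lost both (adjusted p 0.0607 and 0.0506). The endothelial sum was 646 to 1071 CPM at 0 h and 429 to 471 at 22 h, and the platelet sum 3.51 to 6.79 and 6.34 to 12.4. The sum of the hemoglobin and heme clearance genes was 653 to 825 CPM at 0 h and 1573 to 1756 at 22 h, above every library of the other times (highest 1433). The iBAT libraries lay on 6 lanes and no time was on 1 lane alone, but no fit with the lane as a covariate was estimable. Both retained 22 h libraries were on lanes that held no other retained iBAT library, so that 22 h and lane cannot be told apart. The 22 h libraries held 3156101 to 8836608 counts and those at 0 h 9576245 to 16227458. The part of these in the iBAT results was not tested.

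In BRN the fasted libraries had more Hbb-bs than the fed ones on average. It was 29.1, 70.6 and 45.5 CPM at 0 h, 284, 52.2 and 165.9 at 2 h, 167.1 and 226 at 8 h, 111.99, 351 and 62.5 at 12 h, 371 and 204 at 18 h, and 153.7, 143.9 and 75.6 at 22 h. Of the 13 fasted libraries, 11 lay above all 3 fed ones. Among these 11 are 2 h replicate 3 (165.9 CPM) and 18 h replicate 2 (371 CPM, the highest), the BRN libraries with a profile near another organ. The mean of the fasted times exceeded 0 h by a log2FC of 2.11 (SE 0.663), which missed the call (adjusted p 0.0612, edgeR). Without those libraries the log2FC was 1.99 (adjusted p 0.0895), and over all 11 alternatives the adjusted p ranged from 2.62e-26 without the filter to 0.683 with the lane as a covariate. Hba-a1 (log2FC 1.06, adjusted p 0.0650), Hbb-bt (1.38, 0.0748) and Hba-a2 (1.05, 0.164) missed it too. In this contrast 3.44% of all genes in BRN were called. The joint test called 0.00597% of the genes in BRN and no member. Sums of other lists also differed between times in BRN. The summed level of the hemoglobin and heme clearance genes was 386 to 479 CPM at 0 h, 260 to 445 at 2 h and 238 to 306 from 8 h on. The mean endothelial sum was 81.6 CPM at 0 h, 75.2 at 2 h, 125.4 at 8 h, 119.1 at 12 h, 80.99 at 18 h and 98.6 at 22 h. It was above its 0 h value at 8, 12 and 22 h and below it at 2 and 18 h. The Hbb-bs mean was above its 0 h value at each fasted time. The mean platelet sum was 4.25 CPM at 0 h, 5.25 at 2 h, 5.96 at 8 h, 6.86 at 12 h, 4.52 at 18 h and 7.18 at 22 h. No test of these sums was run. Library totals were 6149574 to 9578253 counts at 0 h and 3045845 to 4987342 at 18 h. Hbb-bs against the total had a Spearman rho of -0.447 (permutation p 0.0849), and a Pearson r of -0.00785 without the 2 most extreme totals. All fed libraries have names of a common number series, which 2 h replicate 3 and 12 h replicate 3 share. The other fasted ones have names of another series, so that fasting and this split can hardly be told apart. The part of these in the BRN values was not tested.

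At single times in BRN, only Hba-a1 at 12 h was called (log2FC 1.52, SE 0.429, adjusted p 0.0473), with 47.4, 117.05 and 38.9 CPM against 15.3, 31.1 and 34.5 at 0 h. With each library left out in turn it was called in 7 of 16 fits, and without 12 h replicate 2 the log2FC was 0.77 and the adjusted p 0.284. Over 11 other alternatives the adjusted p ranged from 2.84e-07 to 0.467. The call was lost with the lane as a covariate (adjusted p 0.215), with library totals in place of TMM (0.0708), with all libraries (0.467), without the 2 BRN libraries with a profile near another organ (0.0514), and without replicate 1 (0.399) or 2 (0.109) of each time. In this contrast 2.3% of all genes were called as higher. Alas2 did not follow, with 1.15, 5.69 and 3.16 CPM at 0 h and 4.73, 0 and 0.973 at 12 h.

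Outside OB and iBAT no member was called by the joint test. The background was 2.99% of genes in CBL, 0.107% in BST, 6.55% in STM and 16.0% in LIV. It was 0.0% in pgWAT and in psWAT, where 1694 and 3192 genes had an unadjusted p under 0.05 and DESeq2 called 556 and 2053. The nearest to a call were Alas2 in CBL (adjusted p 0.0689), Hba-a2 in CBL (0.0772) and Alas2 in BST (0.0845). In LIV the joint adjusted p of the globins was 0.903 to 0.983, and of Alas2 0.342. Alas2 in LIV differed between fasted and fed mice by a log2FC of -0.12 (SE 0.102, adjusted p 0.532). In pgWAT the spread within a time was wide: Hbb-bs at 22 h was 1081, 32.8 and 454 CPM. That pgWAT 22 h replicate 2 library was 1 of the 4 with a profile near another organ. In psWAT at 22 h the 2 retained mice had 5.84 and 89.04 CPM. In STM, Hbb-bs was 13.7, 8.52 and 63.3 CPM at 0 h and 4.58 to 24.4 in all 14 fasted libraries (fasted minus fed log2FC -1.60, SE 0.451, adjusted p 0.149).

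Fasted minus fed, over all organs, 0 of 44 contrasts were called by edgeR, against 0.583% of all genes and organs. There were 7 with an unadjusted p under 0.05, a count not set against the share of all genes at that threshold. DESeq2 called 4, against 0.924% of all. Of the 220 contrasts of a single time with 0 h, 5 were called, against 1.16% of all genes: Hba-a2 and Hbb-bt in OB at 18 h, Hba-a1 in BRN at 12 h, and Hba-a1 and Hba-a2 in iBAT at 22 h. All 5 were higher than at 0 h. At an unadjusted p under 0.05 there were 39, again without the share of all genes at that threshold. These contrasts share their 0 h libraries within an organ. Whether the fasted minus fed difference of a member itself differed among organs was tested as an interaction. Of the members 0 of 5 were called (edgeR, no other tool run), against 13.1% of all genes. At an unadjusted p under 0.05 there was 1 of 5, against 5476 of 21601 genes. This fit takes the organs of a mouse as independent. With the mouse as a block, an alternative chosen after seeing the data, 0 of 5 were called too, against 12.1% of all genes, and the adjusted p of Hbb-bs was 0.0505. There 1 of 5 had an unadjusted p under 0.05, against 5321 of 21601 genes. Without the block the lowest was Hbb-bs (p 0.0118, adjusted p 0.0757), with log2FC from -1.54 in STM to 2.00 in BRN.

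**Figure D4:**
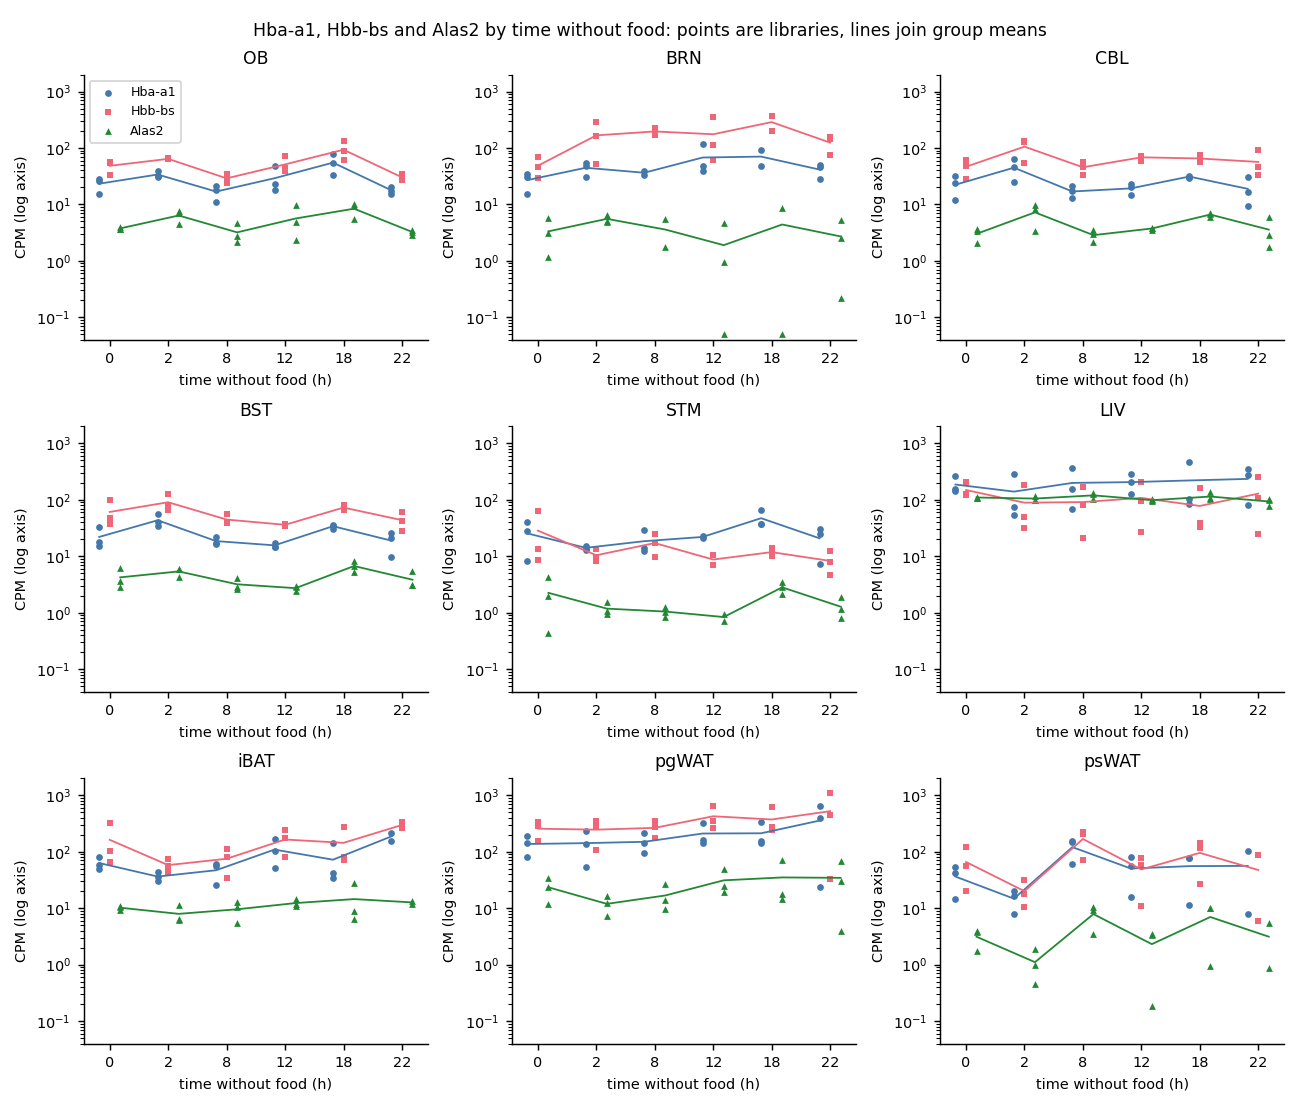
Hba-a1 (blue circles), Hbb-bs (red squares) and Alas2 (green triangles) in each organ (y axis, CPM on a log scale; x axis, hours without food at even spacing), 1 point per retained library, lines joining group means, libraries with 0 counts drawn at the bottom edge. The group means of OB are highest at 18 h for each of the 3 genes, that of Hba-a1 in iBAT is highest at 22 h, and Alas2 in LIV stays between 78.9 and 135.6 CPM.

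Each mouse gave all 9 organs, and libraries of the same time and replicate number were taken as the same mouse, which was not checked. If so, a level shared by a whole animal would appear as a correlation between organs. For Hbb-bs, 0 of 36 organ pairs were called (two-sided permutation test of Spearman rho over 15 to 18 mice, Benjamini-Hochberg over the 36 pairs), with 3 at an unadjusted p under 0.05 and 0 by Pearson r. On TMM-normalized CPM, CBL with BST was called by Pearson r (0.705, adjusted p 0.0439; rho 0.571, adjusted p 0.187). The 3 were pairs of brain regions: OB with CBL (rho 0.645, p 0.00487, adjusted p 0.175; Pearson r 0.512, p 0.0296, and 0.571 without the 2 farthest mice), OB with BST (rho 0.583, p 0.0131, adjusted p 0.205; r 0.610, p 0.00780, and 0.603) and CBL with BST (rho 0.562, p 0.0171, adjusted p 0.205; r 0.679, p 0.00209, and 0.510). Of the 36 values of rho 26 were positive, from -0.446 (OB with psWAT) to 0.645, with a median of 0.139. Without replicate 2 of each time 16 were positive and the median was -0.10, and with the means of the times taken out 28 were positive and the median was 0.32. With the means of each fasting time taken out and permutation within times, 1 pair was called, LIV with iBAT (rho 0.811, adjusted p 0.0151; Pearson r 0.776). In the 6 other alternatives this pair had a rho of 0.371 to 0.618 and an adjusted p of 0.166 to 0.665. For Alas2, 0 of 36 pairs were called by rho (2 unadjusted) and 1 by Pearson r, CBL with BST (r 0.781, adjusted p 0.00792, and 0.769 without the 2 farthest mice; rho 0.626, adjusted p 0.240). The 18 h replicate 2 mouse was above the median Hbb-bs of all 9 organs, and the 22 h replicate 2 mouse above that of 1 of 8.

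**Figure D5:**
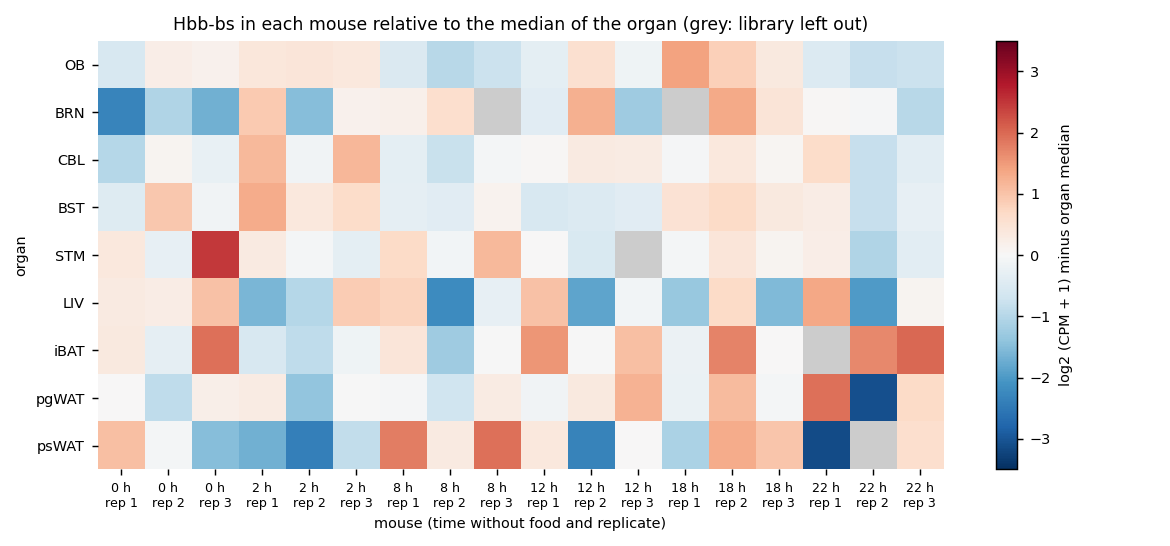
Hbb-bs in each organ (rows) of each mouse (columns, by hours without food and replicate), as log2 (CPM + 1) minus the median of the organ, red above and blue below it, grey for left-out libraries. The 18 h replicate 2 mouse lies above the median in all 9 organs, and the 22 h replicate 2 mouse in 1 of 8.

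To see which other genes had the pattern of Hbb-bs, the within-organ Pearson r with Hbb-bs was computed for 15584 genes kept in at least 5 organs, and the median over organs was ranked. The other members held the top places: Hba-a1 (0.912), Hbb-bt (0.895), Hba-a2 (0.866) and Alas2 (0.849). The next 10 were Fdx1 (0.724), Crls1 (0.715), Gpx1 (0.707), Rbp7 (0.705), Tmem120a (0.694), Fabp4 (0.693), Tmed1 (0.692), Cfd (0.688), Ppa2 (0.685) and Mpc2 (0.680). Over all genes ranked the median was -0.083 and the 95th percentile 0.392. Fdx1, an electron carrier of mitochondria, had 0.846 in psWAT and 0.011 in BRN, and the members varied as well, from 0.505 (STM) to 0.977 for Hba-a1, from 0.355 (STM) to 0.915 for Hba-a2 and from -0.189 (BRN) to 0.938 for Alas2. Fabp4, Rbp7 and Cfd, genes of fat tissue, were kept in only 5 or 6 organs and had 0.905, 0.920 and 0.8995 in psWAT.

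Most genes that mark red cell precursors were at or near the floor. Of 18 erythroid genes listed, 17 were in the table (Ahsp was not matched), and 4 to 7 passed the filter in an organ. The red cell membrane genes Epb42, Rhag and Kel had organ means of at most 0.382 CPM, and Slc4a1, the anion exchanger, at most 1.72 CPM (CBL). Gata1, the transcription factor of erythroid cells and megakaryocytes, was 1.95 ± 1.10 CPM in psWAT and at most 0.116 elsewhere. Klf1, the erythroid activator of beta globin, was 4.14 ± 1.32 CPM in LIV and at most 0.352 elsewhere. The listed genes with higher levels, among them Sptb (323 CPM in CBL), Bpgm (113.2 in BST) and Slc25a37 (117.2 in psWAT), are also expressed by other cells. Of 52 joint tests of erythroid genes over the fasting times 3 were called (5.77%, against 7.34% of all genes and organs): Bpgm and Sptb in OB and Slc25a37 in LIV.

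Globins of other cells and ages are not members and are given beside them. The embryonic genes Hbb-bh1, Hbb-bh2, Hbb-y and Hba-x had organ means of at most 0.254 CPM. Mb, the oxygen store of muscle, was 239 ± 168.4 CPM in STM and 150 ± 230 in iBAT. Cygb, expressed in many tissues, was 140 CPM in BST and was called by the joint test in OB and STM. These were the only calls among 21 tests of other globins (9.52%, against 7.34% of all genes and organs). Of the heme synthesis genes, Alas1 was 1243 ± 338 CPM in LIV, 349 ± 99.3 in pgWAT and 315 ± 60.5 in iBAT, with 39.01 to 127 CPM elsewhere. Of 72 joint tests of heme synthesis genes 4 were called (5.56%, against 7.34% of all genes and organs), among them Cpox in LIV and Alad and Urod in iBAT.

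Genes of other blood cells and of the vessel wall are given for comparison with the members. Of 72 joint tests of endothelial genes 11 were called (15.3%), with Kdr, Pecam1, Tek and Tie1 in OB and 6 genes in iBAT, where 15.3% and 29% of all genes were called. Of 20 tests of platelet genes 2 were called, both of Itga2b, in STM and LIV, where 6.55% and 16.0% of all genes were called. Of 26 tests of neutrophil genes the lowest adjusted p was 0.0608 (S100a8 in iBAT, edgeR). Of 49 tests of genes that clear hemoglobin and heme 6 were called (12.2%), among them the hemoglobin scavenger receptor Cd163 in LIV and the iron exporter Slc40a1 in OB and iBAT. All 6 were in OB, LIV and iBAT, where 15.3%, 16.0% and 29% of all genes were called. The neutrophil sum ranged from 0.776 to 143.7 CPM among OB libraries and from 1.45 to 737 among psWAT libraries, while Hbb-bs spanned 5.37 times in OB and 38.8 times in psWAT.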

How the data were processed

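Organs of 18 mice gave stranded, poly(A)-selected, paired-end mRNA libraries. The RNA of white adipose tissue was extracted with a lipid tissue kit and that of other organs with another column kit, so that kit and organ cannot be told apart. Per the study's methods and processing notes, the authors aligned reads with TopHat2 2.1.1 to GRCm38.p5 and counted uniquely mapped reads over exons with HTSeq 0.9.1, and deposited the raw counts per gene used here. The strand setting of the counting and perfusion are not given in the sources used here. Multi-mapping reads were not counted, which lowers the values of near-identical globin copies.

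The members and gene lists were chosen with earlier results of these data known. Genes named are the 5 members in every organ, listed context genes that a joint test called (at most 4 per list), with others of these lists named for their level after it was seen and some not reported here, and the 10 genes with the highest median within-organ correlation with Hbb-bs. A gene was kept in an organ where at least 3 libraries reached the CPM that 10 counts give at the organ's median total. Fasting times were tested per organ in edgeR 4.0.16 (R 4.3.3; quasi-likelihood, TMM factors), with Benjamini-Hochberg adjustment over all genes kept, and organs in 1 fit of all retained libraries with time as a covariate. DESeq2 1.42.0 was the alternative tool. Correlations are of log2 (CPM + 1) with 100000 permutations (scipy 1.17.1). Intervals are exact binomial (95%). Scripts were tested on simulated data. Alternatives were other scaling, no filter, all libraries, lane, replicate block, libraries left out and, chosen after seeing the data, each library of OB, BRN and iBAT left out and the mouse as a block in the interaction.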

Additional observations from a re-analysis of the deposited data

Results flagged for a closer look

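Members were above the highest 0 h library of the same organ in libraries that the study left out for low totals, which are used here only in the alternative with all libraries. In BRN 18 h replicate 1, with 279848 counts in all, Hba-a1 was 150 CPM (highest at 0 h, 34.5) and Hbb-bs 468 CPM (70.6). In BRN 8 h replicate 3, with 130701 counts, Hbb-bs was 773 CPM (70.6) and Hbb-bt 91.8 CPM from 12 counts (4.23). In iBAT 22 h replicate 1, Hba-a1 was 707 CPM (80.8), Hba-a2 228 (20.05), Hbb-bs 499 (317) and Hbb-bt 36.3 (29.3), while Alas2 was 7.41 CPM, below all 3 mice at 0 h. In STM 12 h replicate 3, Hba-a1 was 46.6 CPM (40.5) and Hba-a2 30.3 (13.3). In psWAT 22 h replicate 2, Hba-a2 was 27.2 CPM (20.3). With 3 libraries or fewer per group, no group was large enough to be searched for a library far from the others.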

How the results depend on the processing

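The joint tests called 6 members and organs. DESeq2 called 19 (15.4% of all genes and organs) and edgeR without the filter 18 (7.53%). Leaving out replicate 1, 2 or 3 of every time gave 0 to 7, with 0 without replicate 3 (2.73%, 2.99% and 6.71% of all genes, against 7.34%). Of fasted minus fed contrasts 0 were called, 1 with library totals in place of TMM (0.59% of all genes), 4 with DESeq2 (0.924%), 4 without the filter (0.627%) and 0 to 2 with a replicate number left out (0.121% to 2.52%). Of the contrasts of single times 5 were called, 14 with DESeq2 (1.95% of all genes), 21 without the filter (1.01%) and 1 to 8 with a replicate number left out (0.638% to 2.52%). With the lane as a covariate 2 remained, those of iBAT, where it could not be fitted: in the 6 organs where it could, all 3 calls (2 in OB, 1 in BRN) were lost. The BRN call was also lost with library totals, with all libraries and without the 4 libraries with a profile near another organ, which lie in organs with no joint call. Of 172 contrasts between organs, leaving out Hbb-bt with STM, 62.2% were called, 61.05% to 63.95% in the 9 alternatives that kept the fold threshold, with library totals losing 14 of the calls, and 75.6% without it. No called value changed sign. The organ pairs without the filter were not run. Of 36 organ pairs 0 were called for a correlation of Hbb-bs, and 1 with the time means taken out (by Pearson r, 1 with TMM-normalized CPM).

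Replicate numbers were not taken to pair samples across times, as each organ had same-numbered samples with a negative correlation of their deviations (lowest r -0.715 to -0.196). The mean r was 0.154 in iBAT, against -0.077 for other numbers, and -0.067 to 0.025 elsewhere. With a replicate block the joint tests called 4 (7.1% of all genes), fasted minus fed 0 (0.567%) and single times 4 (1.2%). For organ pairs, where the block is the mouse, 62.2% were called, with 1 of the calls lost, and 0 interactions of organ and fasting were called with or without it. The cause of these shifts was not tested. Counts of 3 or fewer limit Hbb-bt in STM and Alas2 in BRN, where 3 counts are up to 0.438 and 0.985 CPM. Depth was not low in each such library, as BRN 22 h replicate 2 held 9254029 counts.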
